A study of Mus musculus with 36 samples.

Results

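The genes described here encode 7 transcription factors that are linked to T cell exhaustion and dysfunction: Tox (ENSMUSG00000041272), Tox2 (ENSMUSG00000074607), Ikzf2 (ENSMUSG00000025997), Irf4 (ENSMUSG00000021356), Prdm1 (ENSMUSG00000038151), Bhlhe40 (ENSMUSG00000030103) and Maf (ENSMUSG00000055435). They were taken by symbol from 4 deposited expression tables, and all 7 were found in each table. The table of sorted splenic subsets lists 32940 genes, and the other 3 tables list 56923 genes each. RNA was sequenced from 36 samples of mouse natural killer (NK) cells, with 3 replicates in each of 12 groups. The subset table holds mature splenic NK cells (CD27-CD11b+) from wild-type (WT) C57BL/6 mice and from B2m-/- (KO) mice, which lack most surface MHC class I. In each genotype, TP cells were sorted as Ly49C+Ly49I+NKG2A+, SP cells as Ly49C-Ly49I+NKG2A- and TN cells as Ly49C-Ly49I-NKG2A-. The ionomycin table holds NK cells sorted from splenocytes of WT mice kept for 22 h either with vehicle or with the calcium ionophore ionomycin. The antibody table holds NK cells of WT mice taken from splenocytes kept for 48 h in medium alone or on plates coated with a pair of antibodies, one against NKp46 and the other against either DNAM-1 or NKG2D. The tumour table holds CD27-CD11b+ NK cells from tumours that grew for 10 days under the skin of mice labelled WT from B2m-/- MC38 cells, which derive from a colon carcinoma of the mouse. The columns of that table carry the terms B2MKO and SP, which the titles do not explain, while the genotype is labelled WT, so the genotype and subset of these cells are in doubt. No age is given, and the label on the genes comes from T cell work: no measurement here shows whether any of these NK cells were exhausted.

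T cells that meet antigen for a long time lose function and settle into a state called exhaustion, and several of these factors shape that state. Calcium entry activates calcineurin and NFAT, which can switch on Tox, Irf4 and the NR4A genes, among others. TOX is an HMG-box protein that holds the exhausted state in place, and TOX2 is its close relative. Helios, the product of Ikzf2, is an Ikaros-family zinc finger protein known from regulatory T cells and from dysfunctional lymphocytes. IRF4 is switched on by antigen receptor signals in proportion to their strength. Blimp-1, the product of Prdm1, is a repressor that drives terminal differentiation and plasma cell formation and also acts during NK cell maturation. BHLHE40 is a repressor that supports cytokine output, and c-MAF is a basic leucine zipper protein that supports IL-10 expression. In NK cells, weak engagement of self MHC class I, or chronic stimulation without it, lowers responsiveness.

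The promoters of Irf4 and Prdm1 are shown because Irf4 passed the test threshold after ionomycin and Prdm1 in the knockout averaged over subsets. Both results have limits. Irf4 was high enough to be tested only through the ionomycin group, and its result was lost when some single ionomycin libraries were left out. Prdm1 passed only in a comparison added after its values were seen, and within no single subset. RefSeq promoter windows were at hand for only 3 of the 7 genes (Tox2, Irf4 and Prdm1). Each run gives the 250 bases that end at the gene start, on the gene's own strand, in GRCm38.p6, which is not the build named for the expression tables. Capitals mark a TATAAA box in Irf4 and, in Prdm1, a match to TGANTCA, a loose form of the AP-1 motif that allows any middle base. The middle base is A in Prdm1, where the usual AP-1 site has C or G.
Irf4 (chr13:30748983-30749232, plus strand): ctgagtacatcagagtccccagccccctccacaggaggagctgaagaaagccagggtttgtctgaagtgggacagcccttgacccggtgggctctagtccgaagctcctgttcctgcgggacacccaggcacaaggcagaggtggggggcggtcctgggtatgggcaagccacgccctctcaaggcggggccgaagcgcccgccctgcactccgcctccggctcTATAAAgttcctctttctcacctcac
Prdm1 (chr10:44458749-44458998, minus strand): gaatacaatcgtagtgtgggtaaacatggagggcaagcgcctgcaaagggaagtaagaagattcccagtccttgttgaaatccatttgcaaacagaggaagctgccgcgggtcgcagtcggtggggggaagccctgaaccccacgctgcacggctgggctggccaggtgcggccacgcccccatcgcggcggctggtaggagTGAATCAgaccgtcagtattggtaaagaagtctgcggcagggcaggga
The TATAAA match in Irf4 starts at position -26 from the gene start, and 12.37% of 32851 promoter windows of the same length hold TATAAA on either strand. The TGANTCA match in Prdm1 starts at position -48, and 6.75% of the windows hold that pattern with any middle base. GGAAA, the core of NFAT sites, was not found in either window on either strand, whereas 55.57% of all windows hold it. These are letter matches in short windows and say nothing about binding.

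Values are TPM, an abundance normalized for gene length and library total, which keep no record of depth, so no counting error can be attached to them and precision comes from the spread over 3 replicates. Libraries listed 12290 to 18096 genes above 0. All 8 NK cell markers were present in every group, and B2m was at 2915 to 3420 TPM in the 9 WT subset libraries and at 73.9 to 128 TPM in the 9 KO libraries. The KO TP libraries stood apart: summed B and plasma cell markers (8 genes) were at 228 to 473 TPM there and at most 54.4 TPM in the other subset libraries, and 6 neutrophil markers summed to 61.0 to 218 TPM there and to at most 5.85 TPM elsewhere in that table. In bulk RNA, fewer cells of a type and less RNA per cell cannot be told apart. Each table carries a single batch date, and groups were compared only within a table. The p-values measure the spread between samples called biological replicates, and an exact permutation test of 3 against 3 cannot go below 0.1, so calls rest on limma across all tested genes with Benjamini-Hochberg adjustment (adjusted p under 0.05).

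TPM divide by gene length, so levels may be compared between genes within a library. Bhlhe40 was the highest of the 7 genes and Prdm1 the next in 36 of 36 libraries. Bhlhe40 ranged from 120 to 194 TPM in the subset table, where a median of 9.53% of tested genes lay above it, and from 1226 to 1579 TPM in tumour NK cells, where 0.763% did. Prdm1 ranged from 62.3 to 120 TPM in the subset table, and a median of 18.6% of tested genes lay above it. Tox, Maf and Ikzf2 formed a lower tier. Tox lay above Maf in 29 of 36 libraries, and Ikzf2 lay above Maf in 6, of which 4 were in the ionomycin table. Irf4 and Tox2 were near 0 in freshly sorted subsets, with Irf4 at most 1.09 TPM and Tox2 at most 3.48 TPM, so neither passed the filter of a mean of 1 TPM and 5 of the 7 genes were tested there.

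The comparison of KO with WT cells asks which genes differ in NK cells that matured without most MHC class I. Prdm1 was the gene of the 7 with the clearest difference. In WT cells it was at 87.4, 71.7 and 74.3 TPM in TP, 80.3, 85.1 and 62.3 TPM in SP, and 73.0, 92.7 and 66.2 TPM in TN libraries. The KO values were 117, 120 and 97.7 TPM in TP, 109, 119 and 99.97 TPM in SP, and 87.7, 98.1 and 95.8 TPM in TN libraries. The KO libraries were thus higher as a set: 8 of 9 WT libraries lay below every KO library, and the exception was WT TN replicate 2. The titles do not state whether same-numbered libraries of a genotype come from the same mouse, so the libraries of a genotype may not be independent. The group means were 77.8 ± 8.39 (SD, n = 3) TPM in WT TP against 112 ± 12.2 TPM in KO TP, 75.9 ± 12.0 against 109 ± 9.77 TPM in SP, and 77.3 ± 13.8 against 93.9 ± 5.48 TPM in TN cells.

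Within single subsets the Prdm1 difference did not pass the threshold. The log2 difference of KO from WT was 0.51 (95% interval 0.21 to 0.82, limma adjusted p 0.102) in TP, 0.53 (0.22 to 0.84, adjusted p 0.0935) for SP cells and 0.29 (-0.02 to 0.60, adjusted p 0.510) in TN cells. The groups did not overlap in TP and SP cells and overlapped in TN cells. A contrast averaged over the 3 subsets was added after these values were seen, and it took all libraries as independent. In it, Prdm1 rose by 0.45 (SE 0.0838, interval 0.27 to 0.62, limma adjusted p 0.00325). It was the only member called among the 5 tested, beside 6.18% of all 12018 tested genes, so a call in this contrast was not rare. Prdm1 and Maf had an unadjusted p under 0.05, beside 19.5% of all tested genes, and no member was free of overlap between the 9 WT and 9 KO libraries (1.22%). The difference was 0.41 (limma adjusted p 0.0401) without the TP libraries, an omission also added after values were seen. That was the highest adjusted p of the 25 alternatives. In KO SP libraries the B and plasma cell markers summed to 2.37 to 13.8 TPM, against 8.32 to 19.5 TPM in WT SP libraries. In KO TP libraries Igha was at 70.5 to 169 TPM and Jchain at 13.5 to 18.8 TPM, against at most 0.15 and 4.89 TPM in WT TP libraries. T cell markers summed to 12.5 to 17.6 TPM in KO TP against 3.35 to 4.96 TPM in WT TP libraries. In SP they overlapped, at 8.15 to 14.8 TPM in KO against 0 to 13.1 TPM in WT libraries. Of these, Cd3g was at 8.20 to 11.3 TPM in KO TP and 3.35 to 8.21 TPM in KO SP libraries, against 0.06 to 2.5 TPM and 0 to 1.78 TPM in WT. Cd3d overlapped in both, at 1.25 to 7.37 and 3.51 to 6.62 TPM in KO against 1.56 to 3.28 and 0 to 10.6 TPM in WT. Plasma cells express Prdm1, and the part of this marker RNA in the Prdm1 difference was not tested. The test of whether the KO difference varied between subsets gave no call for Prdm1 (TN against TP, log2 -0.23, adjusted p 0.894).

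**Figure D1:**
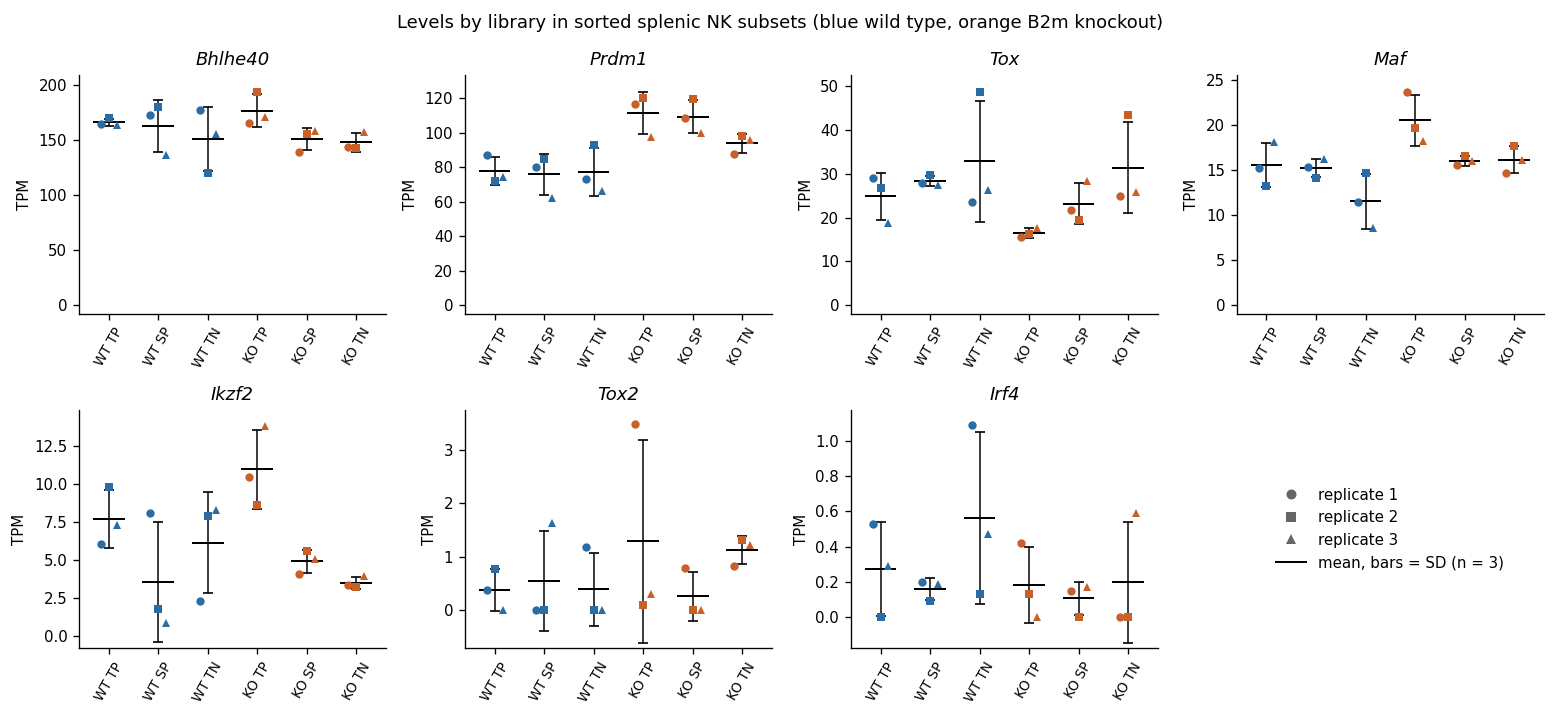
TPM of each of the 7 genes in the 18 libraries of the subset table, by genotype and sorted subset, with points for replicates, lines for means and bars for the SD (n = 3). Prdm1 lies between 87.7 and 120 TPM in KO libraries and between 62.3 and 92.7 TPM in WT libraries, while Irf4 and Tox2 stay near 0 in all groups.

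Maf stood above WT in KO cells of 2 subsets, without a call. In TP cells it was at 15.2, 13.3 and 18.1 TPM in WT and at 23.7, 19.7 and 18.3 TPM in KO libraries. In TN cells it was at 11.4, 14.7 and 8.54 TPM in WT and at 14.7, 17.7 and 16.1 TPM in KO libraries. In both subsets every KO library was above every WT library, by a narrow margin between the nearest samples. The KO TP libraries are those that stood apart in B cell, plasma cell and neutrophil RNA, whose part in the Maf difference was not tested. The log2 difference was 0.38 (limma adjusted p 0.483) in TP and 0.48 (adjusted p 0.403) in TN cells, against 0.07 (adjusted p 0.940) in SP cells, where WT libraries were at 15.4, 14.2 and 16.2 TPM and KO libraries at 15.5, 16.6 and 16.0 TPM. Averaged over subsets the difference was 0.31 (interval 0.06 to 0.56, adjusted p 0.139), which missed the threshold.

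Over the 3 comparisons of KO with WT within a subset, limma called 0 of the 5 tested genes each time, beside 1.59% of all genes for TP, 1.35% for SP and 0.716% for TN cells. An unadjusted p under 0.05 was found for 1 of the 5 each time: Prdm1 in TP and in SP cells (beside 11.8% and 11.7% of all tested genes), and Maf in TN cells (10.5%). The groups did not overlap for 3 of 5 genes in TP cells, beside 18.3% of all tested genes, for 1 in SP (18.9%) and for 1 in TN cells (13.7%). The third of these genes in TP cells was Tox, which was lower in KO cells, as its levels show.

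Tox, the factor most tied to exhaustion, was lowest in KO TP cells. It was at 29.1, 26.7 and 18.8 TPM in WT TP, 27.9, 29.7 and 27.6 TPM in WT SP, and 23.5, 48.8 and 26.3 TPM in WT TN libraries. The KO values were 15.6, 16.2 and 17.7 TPM in TP, 21.8, 19.4 and 28.4 TPM in SP, and 25.0, 43.4 and 25.8 TPM in TN libraries. The 3 KO TP libraries lay below the other 15 subset libraries, and 1 TN library of each genotype stood far above its partners. KO TN cells exceeded KO TP cells by 0.85 on the log2 scale (interval 0.29 to 1.41, limma adjusted p 0.331), with no overlap. WT TN cells exceeded WT TP cells by 0.34 (interval -0.22 to 0.90, adjusted p 0.650), with overlap. Averaged over genotypes, also added afterwards, TN cells exceeded TP cells by 0.59 (adjusted p 0.152), and the difference between the genotypes was not called (0.51, adjusted p 0.868). By mean, the 6 groups ran WT TN, KO TN, WT SP, WT TP, KO SP and KO TP, and only KO SP and KO TP, of the neighbours in this order, did not overlap.

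Ikzf2 ran the other way in KO cells. Its KO values were 10.5, 8.64 and 13.8 TPM for TP, 4.09, 5.57 and 5.09 TPM for SP, and 3.32, 3.25 and 3.97 TPM for TN libraries, with no overlap between any of these groups. In WT cells it was at 6.04, 9.82 and 7.28 TPM in TP, 8.11, 1.75 and 0.82 TPM in SP, and 2.28, 7.91 and 8.27 TPM in TN libraries. The WT SP and WT TN groups each held a library far from its partners, and all 3 WT groups overlapped. KO TN cells were below KO TP cells by a log2 difference of -1.39 (interval -2.44 to -0.34, limma adjusted p 0.487), and KO SP cells by -1.004 (adjusted p 1). Averaged over genotypes, SP cells differed from TP cells by -1.13 (interval -1.87 to -0.39, adjusted p 0.430). That difference was called in 1 of 18 alternatives, over which the limma adjusted p ran from 0.0305 to 0.743. The call came when WT SP replicate 1, the SP library with the highest Ikzf2, was left out (-1.47, adjusted p 0.0305). The KO TP libraries with the highest Ikzf2 are also those with B cell, plasma cell and neutrophil RNA, whose part in this order was not tested.

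Bhlhe40, the repressor with the highest level, was called in no comparison of the subset table. It was at 165, 170.2 and 164 TPM in WT TP, 173, 180.5 and 136 TPM in WT SP, and 178, 120.4 and 156 TPM in WT TN libraries. In KO cells it was at 166, 194 and 171 TPM in TP, 139, 156 and 158 TPM in SP, and 144, 143 and 158 TPM in TN libraries. All neighbouring groups overlapped, and the averaged KO difference of -0.01 had an interval from -0.17 to 0.15 on the log2 scale (limma adjusted p 0.958). Irf4 was listed at 0 in 5 of 18 libraries, with its highest value of 1.09 TPM in WT TN replicate 1. Tox2 was listed at 0 in 7 of 18 libraries, with its highest value of 3.48 TPM in KO TP replicate 1 and 0.82, 1.31 and 1.23 TPM in the KO TN libraries. Neither was tested, and without the filter limma called neither in any comparison of this table.

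**Figure D2:**
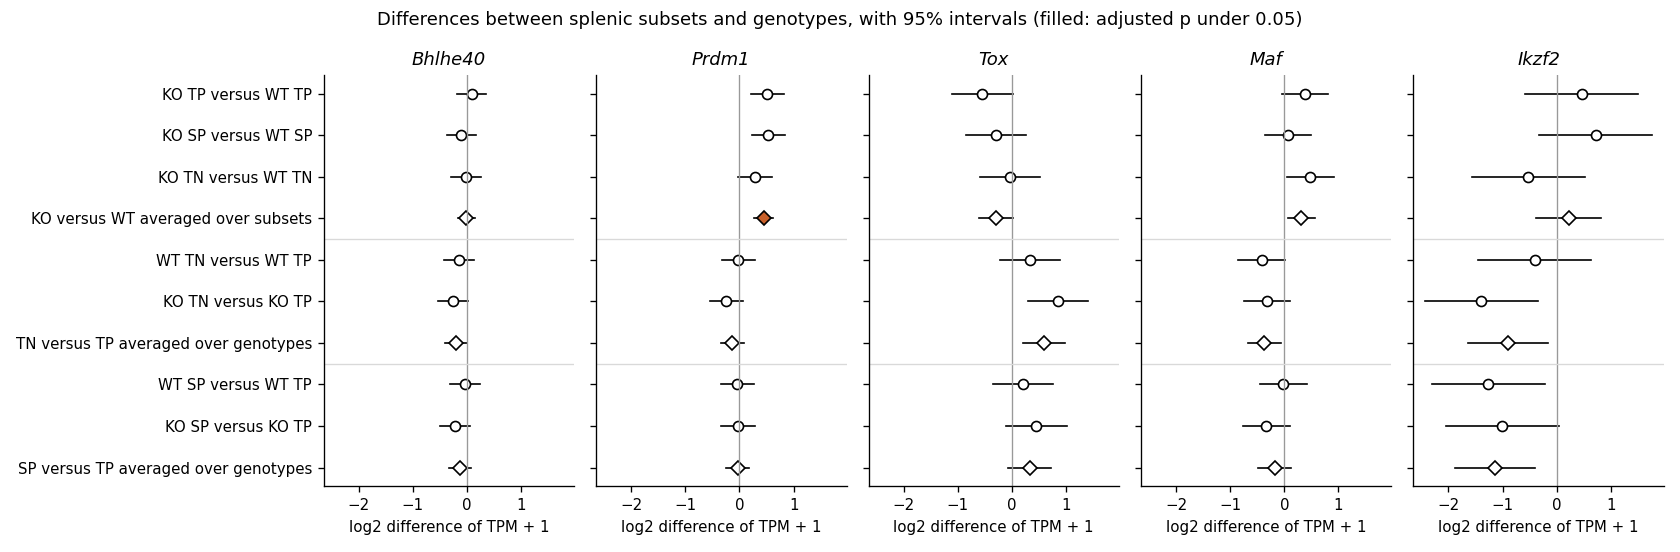
Log2 differences of TPM + 1 (points) with 95% intervals (lines) for the 5 tested genes in comparisons of genotype and of subset; diamonds are averages of contrasts added after the values were seen, and a filled symbol marks an adjusted p under 0.05. The averaged KO difference of Prdm1, at 0.45, is the filled symbol, and the Ikzf2 intervals are the widest.

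Between sorted subsets of a genotype, limma called 0 of the 5 genes in each of 6 comparisons. The share of all tested genes called was 1.31% for WT TN against TP, 0.191% for WT SP against TP, 0.383% for WT TN against SP, 0.524% for KO TN against TP, 0.2% for KO SP against TP and 0.0416% for KO TN against SP. An unadjusted p under 0.05 was reached by Ikzf2 in WT SP against TP cells (beside 7.71% of all tested genes) and by Tox and Ikzf2 in KO TN against TP cells (6.43%). It was reached by none of the 5 in WT TN against TP (12.5%), WT TN against SP (12.1%), KO SP against TP (2.93%) and KO TN against SP cells (2.77%). The groups did not overlap for 4 of 5 genes in KO TN against TP cells (beside 13.2% of all tested genes), with Tox higher and Ikzf2, Bhlhe40 and Maf lower in TN cells. The same held for 4 of 5 in KO SP against TP cells (10.9%), again with Tox on the higher side, and for Ikzf2 and Prdm1, both lower, in KO TN against SP cells (10.9%). Both comparisons with KO TP cells share the KO TP libraries, which stood apart in their marker RNA, and the comparison of KO TN with SP cells does not use them. No gene of the 5 was free of overlap in the WT comparisons, where 14.6% of all tested genes were in TN against TP, 10.6% in SP against TP and 11.4% in TN against SP cells. The interaction of genotype with subset called 0 of 5 genes for TN against TP (0.025% of all genes) and for SP against TP (0.0166%), with no unadjusted p under 0.05 either (6.27% and 4.41% of all genes). Averaged over genotypes, limma called 0 of 5 in TN against TP cells (beside 1.89% of all genes), where Tox, Ikzf2, Maf and Bhlhe40 had an unadjusted p under 0.05 (11.7%) and all 5 overlapped between groups (1.5% did not). It called 0 of 5 in SP against TP cells (0.433%), where Ikzf2 had an unadjusted p under 0.05 (6.15%) and all 5 overlapped (0.466% did not).

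Other regulators were called between these subsets, where none of the 5 tested factors was. Of 16 tested identity factors, 3 were called in WT TN against TP cells: Tcf7 (log2 0.45, limma adjusted p 0.0376), which encodes TCF-1, a factor of stem-like and early cells, and Eomes (0.73), a T-box factor, were higher, and Id2 (-0.93), an inhibitor of E proteins, was lower in TN cells. Of 19 tested activation factors, Myc (0.76, adjusted p 0.0389) and Nfkb1 (0.52) were higher. Of 9 tested exhaustion outputs, a list of receptors, ectoenzymes, cytokines and a granzyme linked to exhausted T cells, Tigit (2.12) was higher, and Cd38 (-0.84) and Gzmb (-0.42) were lower. In KO TN against TP cells Tcf7 (0.99) was higher, and Id2 (-0.60) and Entpd1 (-0.91) were lower, although Entpd1 lost its call under both other scalings. Between the genotypes, Tigit was higher in KO cells in TP (2.62) and SP (1.82), and Tcf7 was lower in TP (-0.63) and SP (-0.44). Egr1 (-2.33), Egr3 (-1.93) and Nr4a1 (-1.54), immediate early genes of receptor signalling, were lower in KO SP cells. In TN cells Gzmb (0.38), a granzyme gene, was higher in KO cells, a call lost under quantile normalization. None of 8 tested paralogues was called in these comparisons. In the averaged contrast of KO with WT, added afterwards, the paralogue Irf8 (0.56, limma adjusted p 0.00315) was called higher, beside 6.18% of all tested genes called. That contrast includes the KO TP libraries with B cell, plasma cell and neutrophil RNA, whose part in the Irf8 difference was not tested.

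The comparison of ionomycin with vehicle asks how NK cells differ when sorted from splenocytes kept with a calcium ionophore. Other spleen cells were thus exposed as well, and calcium signals were not measured here. After 22 h, Irf4 and Ikzf2 were higher in ionomycin-treated cells, Tox and Prdm1 lay above vehicle in every library without passing the threshold, and Bhlhe40 and Maf overlapped between groups. Irf4 was listed at 0 in the 3 vehicle libraries and at 38.3, 16.6 and 25.1 TPM in the 3 ionomycin libraries. The groups were fully apart for this gene, with an adjusted p of 0.00562 by limma and no fold, since the vehicle level was 0. Irf4 passed the filter only through the ionomycin group, where it was high. The call was lost without ionomycin replicate 1 (adjusted p 0.0571) or replicate 3 (0.0708).

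Ikzf2, the gene for Helios, was at 12.7, 7.71 and 10.1 TPM in vehicle and at 72.1, 43.8 and 36.6 TPM in ionomycin libraries. The lowest ionomycin library was well above the highest vehicle library. The mean went from 10.2 ± 2.48 to 50.8 ± 18.8 TPM (SD, n = 3), a log2 difference of 2.18 (SE 0.384, interval 1.31 to 3.06, limma adjusted p 0.0221), or 4.53-fold in TPM + 1. The direction held in all 12 alternatives, at 1.90 to 2.38, but the call held in 6 of them and was lost without vehicle replicate 2 and without each ionomycin replicate in turn (adjusted p 0.0833 to 0.136), without the filter (0.0576) and without the variance trend (0.0594).

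Tox was at 2.54, 18.7 and 10.8 TPM in vehicle and at 31.8, 32.7 and 52.9 TPM in ionomycin libraries. Every ionomycin library lay above every vehicle library, and the vehicle libraries spread widely. The log2 difference of 2.06 (interval 0.65 to 3.47) had an unadjusted p of 0.00931 and a limma adjusted p of 0.139. Prdm1 was at 83.1, 87.8 and 56.4 TPM in vehicle and at 120.2, 152 and 108 TPM in ionomycin libraries, again without overlap. Its log2 difference was 0.74 (interval 0.15 to 1.34, adjusted p 0.216). Neither gene was called in any of the 12 alternatives.

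Bhlhe40 and Maf showed no such separation. Bhlhe40 was at 1425, 1001 and 451 TPM in vehicle and at 860.2, 901 and 589 TPM in ionomycin libraries, so the ionomycin values lay inside the vehicle range. Its log2 difference of -0.17 had an interval from -1.06 to 0.73 (limma adjusted p 0.898). Maf was at 8.92, 18.3 and 14.6 TPM in vehicle and at 9.83, 14.3 and 15.5 TPM in ionomycin libraries, with a difference of -0.04 (interval -1.03 to 0.94, adjusted p 0.983). Both intervals reach differences about as large as that of Prdm1. Tox2 was listed at 0 in all 6 libraries.

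**Figure D3:**
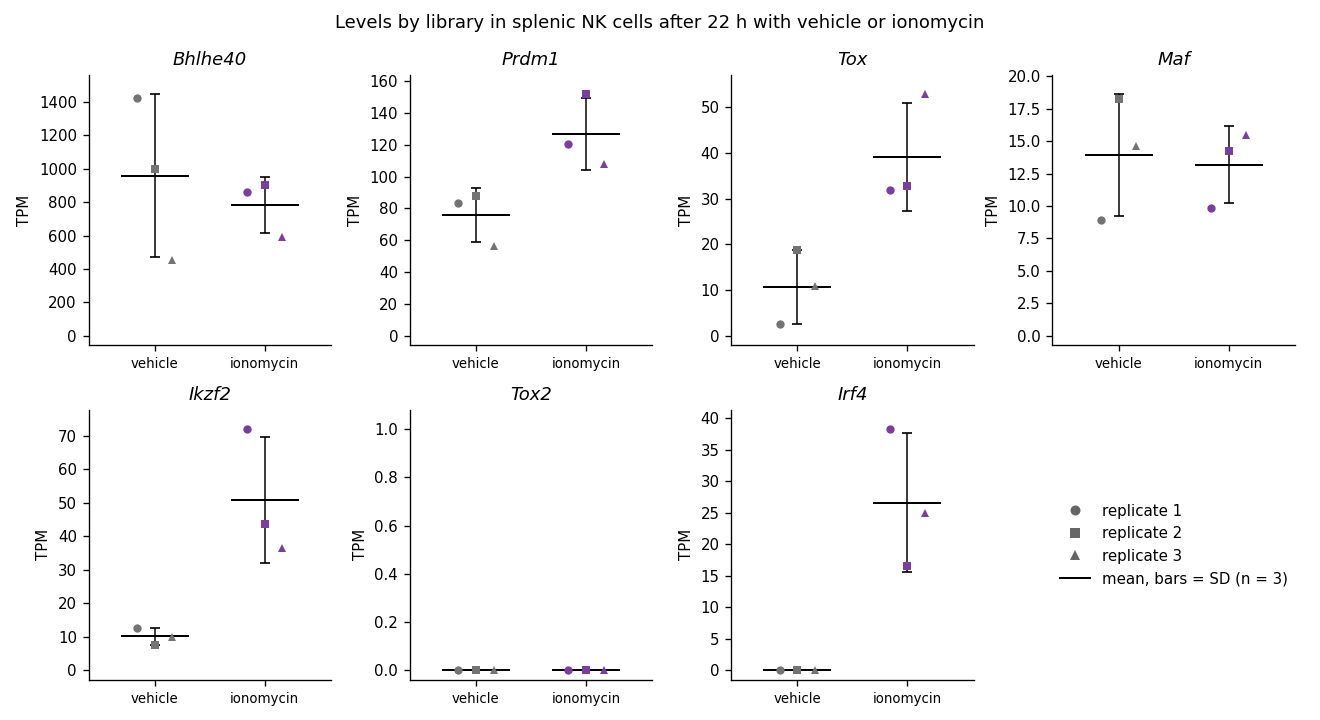
TPM of the 7 genes in the 3 vehicle and 3 ionomycin libraries, with points for replicates, lines for means and bars for the SD (n = 3). Irf4, Ikzf2, Tox and Prdm1 do not overlap between the groups, while the vehicle values of Bhlhe40 span 451 to 1425 TPM.

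Irf4 aside, limma called 1 of the other 5 tested genes after ionomycin (Ikzf2, higher), beside 2.91% of all 14372 tested genes called and 1.66% called higher. The groups did not overlap for Ikzf2, Tox and Prdm1, all higher, beside 20.1% of all tested genes, and the same 3 had an unadjusted p under 0.05, beside 15.1% of all tested genes. Marker RNA moved with these differences. The NK cell markers summed to 10363 to 17704 TPM in vehicle and to 6567 to 8813 TPM in ionomycin libraries. T cell markers (7 of 8 listed) summed to 2.24 to 7.87 TPM in vehicle and to 13.2 to 25.3 TPM in ionomycin libraries, with Cd4, Cd8a and Cd8b1 at 0 in all 6. The macrophage and dendritic cell markers summed to 87.6 to 211 TPM and to 274 to 421 TPM, of which Itgax, which NK cells also express, held 68.3 to 169 TPM and 232 to 401 TPM. Cd68 held 19.3 to 25.3 TPM and 13.8 to 34.9 TPM, and Lyz2 reached 16.6 and 2.73 TPM. Csf1r and Flt3 were at 0 in vehicle and reached 7.11 and 0.40 TPM in 1 ionomycin library each, and Adgre1 and Xcr1 were at 0 in all 6. B and plasma cell markers summed to at most 37.2 TPM in vehicle and 3.23 TPM in ionomycin libraries, with Ms4a1 and Pax5 at 0. Neutrophil markers reached 349 TPM in 1 vehicle library and 119 TPM in 1 ionomycin library and were at most 2.19 TPM in the other 4. ILC1 markers summed to 17.1 to 86.4 TPM and 24.3 to 35.1 TPM, and erythroid and tumour cell markers to 0 TPM and 0.33 to 8.75 TPM. The part of these differences in the results was not tested. Without vehicle replicate 3, the library with the most neutrophil marker RNA, the limma adjusted p of Ikzf2 was 0.0258. The ionomycin library with 119 TPM of these markers stayed in that fit. Leaving out some other single libraries lost the call, with an adjusted p of up to 0.136.

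Relatives and partners of the 7 factors also changed after ionomycin. Among 10 tested paralogues, 2 rose and none fell: Ikzf1 (log2 1.01, limma adjusted p 0.0215), which encodes Ikaros, and Ikzf3 (1.37, adjusted p 0.0420), which encodes Aiolos. They went from means of 335 ± 27.8 and 354 ± 126 TPM to 673 ± 34.7 and 872 ± 61.7 TPM (SD, n = 3), so both stood well above Ikzf2 in either group. Of 21 activation factors, 3 rose and 1 fell. Nr4a2 (6.26) and Nr4a3 (5.13), orphan nuclear receptors induced by calcium and NFAT, and Fosl2 (1.94), an AP-1 subunit, rose, and Egr1 (-1.43) fell. Nfatc1, named after its values were seen, was at 80.0 to 219 TPM in vehicle and 380.2 to 484 TPM in ionomycin libraries and was called, as higher, only under the other 2 scalings. Of 17 tested identity factors, Runx3 (-1.98, adjusted p 0.00572) fell and none rose. Of 17 tested exhaustion outputs, Cd160 (5.15), Lag3 (4.35) and Tigit (3.25), which encode inhibitory receptors, rose, and Cd244a (-2.45), a SLAM-family receptor gene, fell. The median log2 difference was 0.02 over the paralogues, -0.31 over the activation factors, 0.04 over the identity factors, -0.23 over the exhaustion outputs and -0.0044 over all tested genes.

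**Figure D4:**
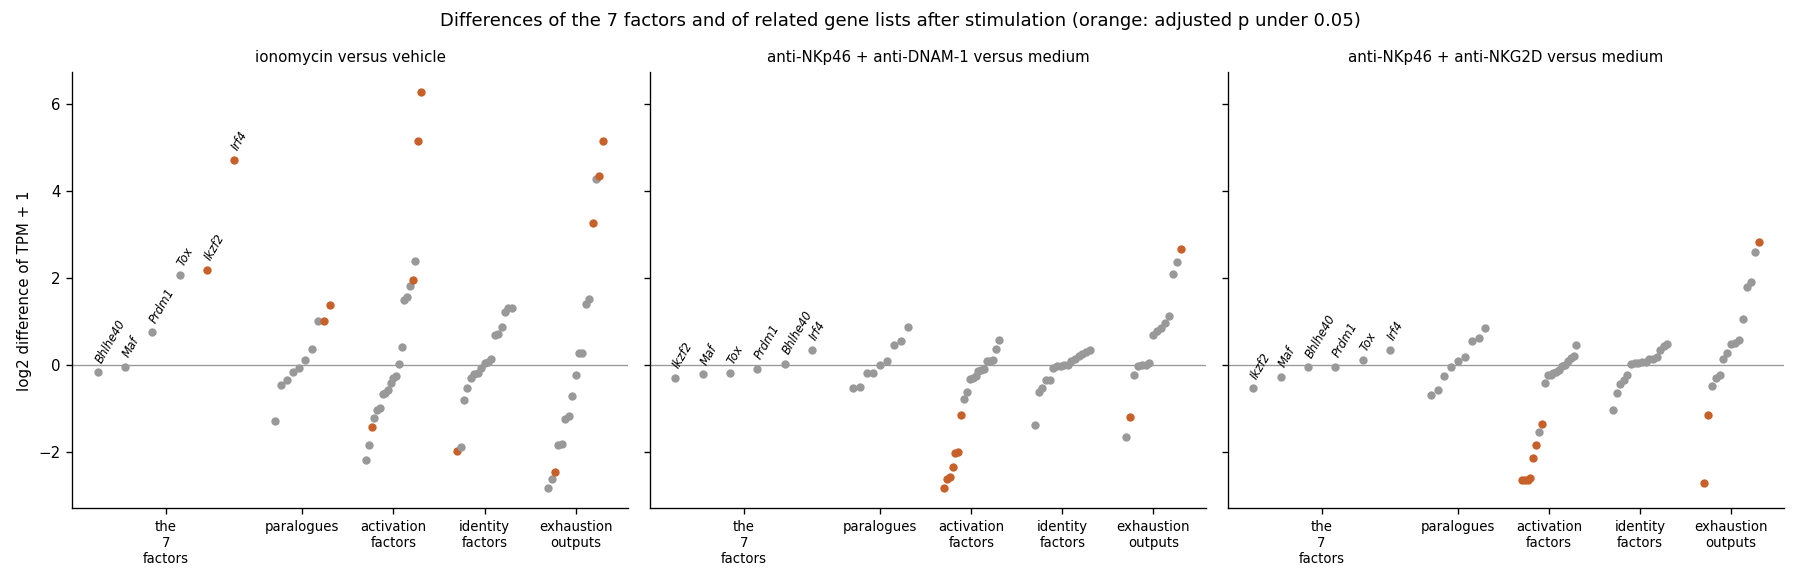
Log2 differences of TPM + 1 for the tested genes of the 7 factors and of 4 related lists after ionomycin and after each antibody pair (points, ordered within a list), with orange for an adjusted p under 0.05. The fitted value of Irf4 after ionomycin depends on the added 1 TPM, since vehicle was listed at 0; after antibodies the 6 tested factors lie between -0.54 and 0.35.

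The antibody comparison asks how NK cells differ after 48 h of engaging pairs of activating receptors. None of the 6 tested factors differed from medium by more than the spread between replicates. Limma called 0 of 6 for NKp46 with DNAM-1 (beside 0.782% of all 13689 tested genes), 0 of 6 for NKp46 with NKG2D (0.431%) and 0 of 6 between the antibody pairs (0.0146%), and the groups overlapped for all 6, whereas 21.1%, 17.3% and 7.42% of all tested genes did not overlap. No unadjusted p was under 0.05 for any of the 6, beside 18%, 15.1% and 1.22% of all tested genes. The group of 6 of the 9 samples differs between sample title and table column. Columns were followed, and with the titles the test also called 0 of the 6 factors in each comparison.

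Irf4, which ionomycin-treated cells alone showed in the ionomycin table, was present in every library of the antibody table. It was at 10.4, 5.99 and 6.68 TPM in medium, 10.2, 8.08 and 11.5 TPM with NKp46 and DNAM-1 antibodies, and 13.7, 8.59 and 7.97 TPM with NKp46 and NKG2D antibodies. The 3 groups overlapped. The log2 difference from medium was 0.35 with either pair (intervals -0.35 to 1.05 and -0.35 to 1.04, limma adjusted p 0.592 and 0.630). Grouped by title, the Irf4 differences became -0.38 and -0.54, also without a call. Ikzf2 was at 7.13, 19.3 and 12.4 TPM in medium, 10.9, 7.40 and 11.2 TPM with DNAM-1, and 7.46, 6.90 and 9.78 TPM with NKG2D. Medium replicate 2 was the highest library and medium replicate 1 among the lowest. The differences were -0.29 (interval -1.08 to 0.50, limma adjusted p 0.715) and -0.54 (-1.33 to 0.25, adjusted p 0.501). With groups by title they became 0.37 and 0.24, without a call.

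Tox was at 28.9, 26.3 and 30.5 TPM in medium, 31.5, 20.9 and 23.1 TPM with DNAM-1, and 30.8, 35.0 and 27.2 TPM with NKG2D. Its intervals ran from -0.64 to 0.25 and from -0.33 to 0.55 on the log2 scale. Prdm1 was at 46.3, 77.3 and 46.8 TPM in medium, 58.5, 52.1 and 45.8 TPM with DNAM-1, and 49.3, 63.1 and 49.2 TPM with NKG2D. Replicate 2 of medium was again the highest library, and the intervals ran from -0.57 to 0.39 and from -0.52 to 0.44. Bhlhe40 was at 364, 359.5 and 376 TPM in medium, 336, 350.2 and 439 TPM with DNAM-1, and 315, 336 and 418 TPM with NKG2D, with intervals from -0.27 to 0.31 and from -0.34 to 0.24, the narrowest of the 6. Maf was at 17.0, 11.2 and 15.3 TPM in medium, 14.0, 12.6 and 10.3 TPM with DNAM-1, and 13.8, 10.3 and 11.2 TPM with NKG2D, where medium held the highest library but overlapped both. Its differences were -0.21 (adjusted p 0.708) and -0.27 (adjusted p 0.638). Tox2 was listed at 0 in 8 of 9 libraries and at 0.12 TPM in the other.

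Other genes did differ when the columns gave the groups. Of 20 tested activation factors, 7 fell with each antibody pair and none rose. Nr4a1 (-2.84 with DNAM-1, -2.63 with NKG2D), Egr1 (-2.63 and -2.64), Egr2 (-2.58 and -2.59) and Fos (-2.34 and -2.64) fell the most. Nr4a1 went from 595 ± 106 TPM in medium to 83.2 ± 19.7 and 95.9 ± 22.2 TPM (SD, n = 3). Of 15 tested exhaustion outputs, Lag3 rose (2.66 and 2.81) and Ifng fell (-1.20 and -1.14), and Tnf fell with NKG2D (-2.70, limma adjusted p 0.0197). No paralogue or identity factor was called with either pair. T cell markers summed to 28.1 to 75.0 TPM in medium, 20.7 to 39.6 TPM with DNAM-1 and 22.0 to 30.0 TPM with NKG2D, and ILC1 markers to 67.8 to 77.7, 31.0 to 41.6 and 25.7 to 35.2 TPM, and their part in these differences was not tested. Medium libraries listed 13555 to 14674 genes above 0, against 16107 to 18096 in antibody libraries, and with the sample titles 1 gene in all was called with DNAM-1 and 0 with NKG2D. The 2 antibody comparisons share the medium libraries.

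**Figure D5:**
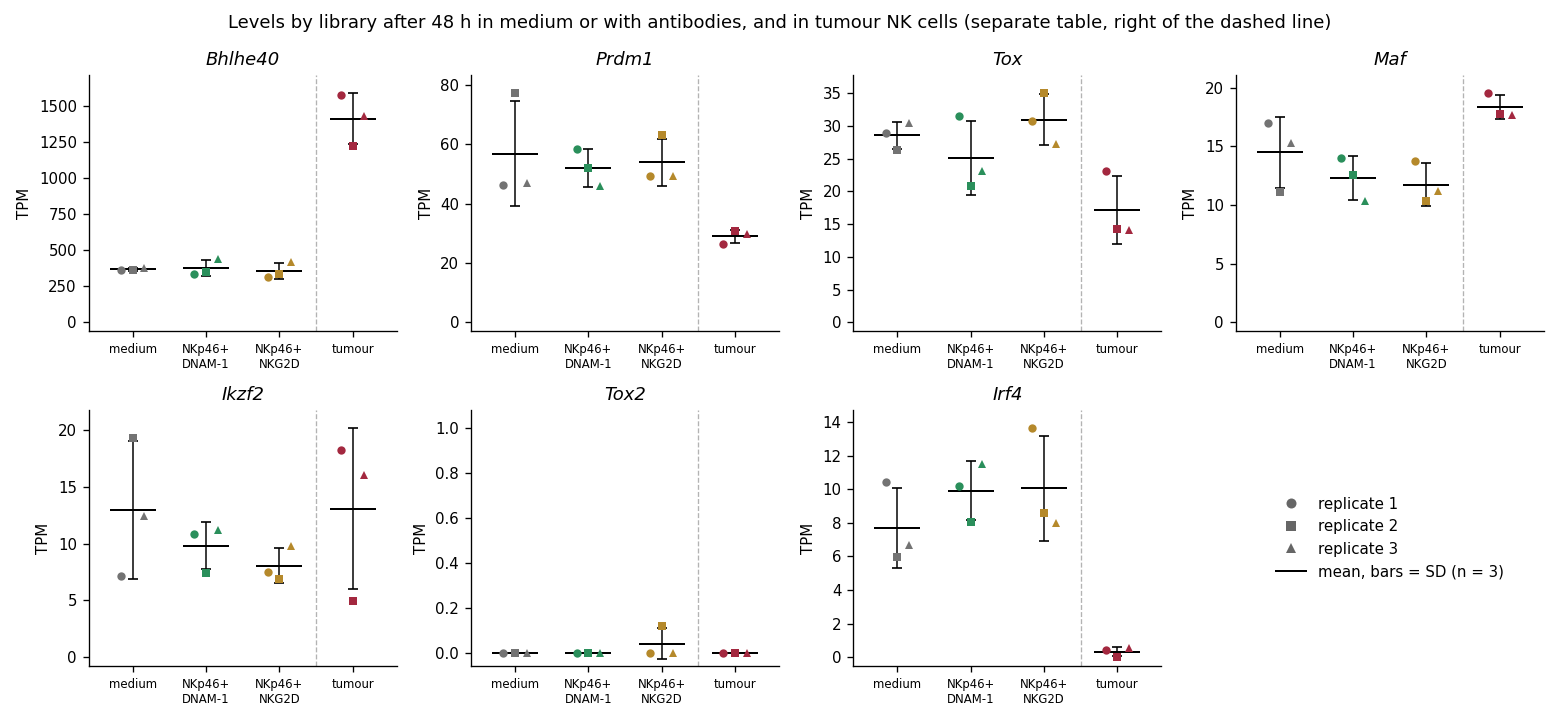
TPM of the 7 genes in the 9 antibody-table libraries (left of the dashed line) and in the 3 tumour libraries (right, from a separate table that was not compared), with points for replicates, lines for means and bars for the SD (n = 3). The medium and antibody groups overlap for every gene, and Bhlhe40 lies between 1226 and 1579 TPM in tumour NK cells.

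NK cells from tumours, whose column names leave genotype and subset in doubt, formed a table of their own with 1 group, so their levels are a description with no test. Bhlhe40 was at 1579, 1226 and 1433 TPM (1413 ± 177, SD, n = 3), and 0.742% to 0.948% of tested genes lay above it. Prdm1 was at 26.4, 30.8 and 29.6 TPM (29.0 ± 2.27), the next of the 7. Maf was at 19.5, 17.8 and 17.7 TPM (18.3 ± 1.04), Tox at 23.1, 14.2 and 14.0 TPM (17.1 ± 5.20), and Ikzf2 at 18.3, 4.96 and 16.0 TPM (13.1 ± 7.12). Maf, Tox and Ikzf2 overlapped one another, and replicate 1 was the highest for Tox, Maf, Ikzf2 and Bhlhe40. Irf4 was at 0.45, 0 and 0.54 TPM, and Tox2 was listed at 0 in all 3. Related genes are given here by choice after their values were seen. Of the calcium-responsive NR4A genes, Nr4a1 was at 748 to 849 TPM, Nr4a2 at 398 to 652 TPM and Nr4a3 at 362 to 698 TPM. Of the inhibitory receptor genes, Tigit was at 341 to 490 TPM and Lag3 at 3.09 to 4.24 TPM, and Pdcd1, which encodes PD-1, was listed at 0 in all 3. Summed NK cell markers were at 12185 to 12649 TPM, and macrophage and dendritic cell markers at 197 to 274 TPM, of which Itgax held 166 to 219 TPM, Lyz2 8.77 to 27.7 TPM and Adgre1 1.19 to 4.44 TPM. ILC1 markers summed to 48.9 to 74.1 TPM, T cell markers to 4.72 to 14.0 TPM, and B and plasma cell markers to 2.78 to 4.33 TPM, and neutrophil markers were at 0. Erythroid and tumour cell markers (6 of 7 listed) summed to 0 to 38.7 TPM, with Hba-a1 up to 34.8 TPM, Epcam up to 1.5 TPM, Krt8 up to 1.21 TPM, and Krt18 and Krt19 at 0. These cells and the subset-table cells share the CD27-CD11b+ gate but come from different tables, batch dates and tissues, which cannot be told apart here.

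Across the 33 libraries of the subset, ionomycin and antibody tables, scaled within each table, the 5 factors tested in all 3 were compared with 8603 other genes. The genes most like each were Nt5e (Pearson r = 0.79), Zbtb16 (0.76) and N4bp2l2 (0.73) for Prdm1, Ankrd54 (0.74), Prr14 (0.74) and Heatr9 (0.73) for Maf, and Mrps7 (0.71), Txk (0.67) and Hyi (0.66) for Ikzf2. For Tox they were Lta4h (0.67) and Ddx28 (0.62), and for Bhlhe40 Desi2 (0.66), Cdkn1a (0.65) and Prf1 (0.61). Zbtb16 encodes PLZF, and Prf1 encodes perforin. Among the 5 factors themselves, the values ran from -0.53 for Tox with Bhlhe40 to 0.44 for Ikzf2 with Prdm1. Tox with Bhlhe40 was negative in each table (-0.58, -0.45 and -0.48 in the subset, ionomycin and antibody tables). Libraries of a table share a batch date and their groups, so these values describe the libraries and were not tested.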

How the data were processed

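RNA of NK cells was sequenced from KAPA mRNA HyperPrep libraries, per the labels' protocols. The authors deposited TPM with 2 decimals in 4 tables. STAR, RSEM and GRCm39 are named in the submitters' processing notes, without versions, and the annotation is not given in the sources used here. Depth is therefore unknown. Groups came from sample labels, and in the antibody table from the column names. In each table, genes averaging 1 TPM or more (12018, 14372 and 13689 in the subset, ionomycin and antibody tables) were fitted as log2(TPM + 1) with limma 3.58.1 (R 4.3.3), all groups together, with a variance trend, two-sided tests and Benjamini-Hochberg adjustment over all tested genes. A log2 change on this scale understates changes of low genes. The procedure was tested on simulated data. The 7 genes and all lists were chosen with earlier results of these data known. Named list genes are the called ones with the largest change, up to 4 a list and comparison, and for likeness the 3 genes of highest r among those averaging 5 TPM or more in every table, of which 1 is not reported here. Alternatives were a pseudocount of 0.1, no filter, 2 other scalings, no variance trend, a replicate block, leaving out each library and, for antibodies, groups by title. The 3 averaged contrasts and the omission of the TP libraries were added after values were seen.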

Additional observations from a re-analysis of the deposited data

How the results depend on the processing

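Of the 7 factors, none was called in the 11 planned comparisons of the subset table or in the 3 antibody comparisons under any alternative run, and Prdm1 was the 1 member called in KO against WT averaged over subsets in all 25 (log2 0.40 to 0.49, limma adjusted p 0.00124 to 0.0401). After ionomycin, the 2 calls were Ikzf2 and Irf4, and Irf4 passed the filter only through the ionomycin group. They became 1 without the filter and 1 without the variance trend, and 0 to 2 when a library was left out. The Ikzf2 call held in 6 of 12 alternatives. The cause was not tested beyond the fewer samples or the added genes. In SP against TP averaged over genotypes the count was 0 to 1 when a library was left out. TPM keep no depth, so how far depth limits Irf4 and Tox2 near 0 is unknown. The annotation behind the TPM is also unknown, and 3 replicates per group limit all intervals.

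Column names share replicate numbers across groups, and the titles do not state whether these mark paired samples, so the main fits took samples as unpaired. After removal of group means, same-numbered libraries of different groups correlated at a mean of 0.010 in the subset, 0.062 in the ionomycin and 0.064 in the antibody table. Those values were over 0.1 in 0 of 18, 1 of 3 and 1 of 9 pairs. Libraries with other numbers correlated at means of -0.0052, -0.031 and -0.032, so pairing is not excluded. With the replicate block, the limma adjusted p after ionomycin was 0.0260 for Ikzf2 and 0.0138 for Irf4, which passed the filter only through the ionomycin group, and 0.00369 for Prdm1 in the averaged contrast, and no member call changed. All genes called went from 59 to 239 with NKG2D, from 107 to 528 with DNAM-1, from 2 to 0 between the antibody pairs, from 5 to 8 in KO TN against SP, and from 3 to 1 and 2 to 0 for the interactions.

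Some differences that were never called changed sign, and those that changed with groups by title were not all small. Against medium with NKG2D, Bhlhe40 became 0.019 and Prdm1 0.026 with median-of-ratios scaling, and Prdm1 0.048 with quantile normalization. With groups by title, Irf4 became -0.54, Ikzf2 0.24, Bhlhe40 0.045, Prdm1 0.30 and Tox -0.17. Against medium with DNAM-1, Prdm1 became 0.000426 with quantile normalization, and by title Irf4 became -0.38 and Ikzf2 0.37. Between the antibody pairs, Irf4 became -0.000174 with median-of-ratios scaling and -0.016 with quantile normalization. Apart from the other scaling or the other grouping of samples, the cause was not tested.

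When single libraries were left out, these uncalled differences spanned 0. For Prdm1 they ran from -0.15 to 0.085 in WT TN against TP, -0.13 to 0.091 in WT SP against TP, -0.11 to 0.13 in WT TN against SP, -0.12 to 0.036 in KO SP against TP, -0.081 to 0.032 in SP against TP averaged, -0.12 to 0.10 in the interaction with SP against TP, -0.17 to 0.20 with NKG2D, -0.21 to 0.15 with DNAM-1 and -0.13 to 0.073 between the antibody pairs. For Bhlhe40 they ran from -0.11 to 0.087 in WT SP against TP, -0.24 to 0.037 in WT TN against SP, -0.085 to 0.0062 in KO TN against SP, -0.17 to 0.11 in KO against WT TN, -0.062 to 0.031 in KO against WT averaged, -0.25 to 0.028 in the interaction with TN against TP, -0.63 to 0.20 after ionomycin, -0.17 to 0.033 with NKG2D, -0.095 to 0.098 with DNAM-1 and -0.044 to 0.19 between the pairs. For Maf they ran from -0.12 to 0.094 in WT SP against TP, -0.054 to 0.070 in KO TN against SP, -0.088 to 0.27 in the interaction with TN against TP, -0.31 to 0.17 after ionomycin and -0.031 to 0.18 between the pairs. For Ikzf2 they ran from -0.67 to 0.084 in WT TN against TP, -0.23 to 0.93 in the interaction with SP against TP and -0.63 to 0.030 with DNAM-1. For Tox they ran from -0.18 to 0.33 in WT TN against SP and -0.28 to 0.28 in KO against WT TN, and for Irf4 from -0.13 to 0.23 between the antibody pairs.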
